A study of Homo sapiens with 8 samples.

Results

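Nuclear-encoded subunits of the mitochondrial respiratory chain and ATP synthase were taken from a total RNA sequencing study of MePCE (gene MEPCE) in 2 derivatives of U2OS, a human osteosarcoma cell line. The members were the protein-coding genes whose symbol gives them as subunits of complex I (NDUFA, NDUFB, NDUFC, NDUFS or NDUFV with a number), complex II (SDHA to SDHD), complex III (UQCR), complex IV (COX4 to COX8) or complex V (ATP5). The rule found 89 of 80311 genes, of which 86 had enough counts to be tested. COX6A2, COX8C and ATP5MGL did not. The rule used symbols alone and no measured value.

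The 8 libraries fell into 4 groups of 2. AsiSI siMePCE and AsiSI siNC were the line labelled U2OS- AiD-DiVA AsiSI -ER, which carries the restriction enzyme AsiSI and was given 300 nM 4-hydroxytamoxifen (4-OHT) for 4 h from 92 h, a treatment that switches the enzyme on to cut DNA. Flp-In siMePCE and Flp-In siNC were U2OS-Flp-In-TREx cells, for which the labels state no 4-OHT, so that cell line and 4-OHT cannot be told apart. The siRNA against MEPCE (siMePCE) or a control siRNA (siNC) was given to all cells at 0 and 48 h, with lysis at 96 h. The labels do not say whether the replicates were separate cultures, so p-values measure the spread between these libraries, which may be technical.

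As background, complexes I to IV pass electrons from NADH and succinate to oxygen, complexes I, III and IV pump protons across the inner mitochondrial membrane, and complex V uses the proton gradient to make ATP. Complexes I, III, IV and V combine subunits encoded in the nucleus with subunits encoded in mitochondrial DNA, whereas complex II is wholly nuclear. Core subunits are those that carry out the reaction of a complex, and most of the complexes also have accessory subunits around them. The core proteins of complex III, UQCRC1 and UQCRC2, are core by name and are not counted as catalytic here. MePCE caps 7SK RNA (gene RN7SK), the scaffold of a particle that keeps the elongation kinase P-TEFb inactive.

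Library totals ran from 41431776 to 53695626 counts. Levels are given as CPM, counts after TMM scaling as a share of each library, where log2 FC is the fitted log2 fold change of siMePCE over siNC or, between control groups, of AsiSI over Flp-In: in bulk RNA, fewer copies per cell and more RNA of other kinds cannot be told apart. MEPCE had 3.65 and 2.30 CPM in AsiSI siMePCE, against 29.3 and 29.3 CPM in AsiSI siNC, and 5.35 and 4.84 CPM in Flp-In siMePCE, against 39.9 and 40.1 CPM in Flp-In siNC, and fell in both lines (AsiSI log2 FC -3.30 ± 0.17 SE, adjusted p = 6.36e-12, Flp-In log2 FC -2.97 ± 0.15 SE, adjusted p = 1.11e-11, edgeR). A row overlapping MEPCE held 1.08 times its counts. RN7SK had 1595 and 1600 CPM in AsiSI siMePCE, against 7744 and 7965 CPM in AsiSI siNC, and 2405 and 2089 CPM in Flp-In siMePCE, against 11310 and 10910 CPM in Flp-In siNC. Summed levels of 7 osteoblast and mesenchymal markers were 1488 and 1388 CPM in AsiSI siMePCE, against 1703 and 1937 CPM in AsiSI siNC, and 1046 and 896 CPM in Flp-In siMePCE, against 1356 and 1404 CPM in Flp-In siNC. VIM (582 to 1299 CPM) and SPARC (255 to 493 CPM) made up most of these sums, whereas COL1A2, ALPL and BGLAP had 0.048 to 1.29 CPM. The part of these markers in the results was not tested. Markers of other cell types summed to 5.69 to 10.97 CPM for 4 epithelial genes, 3.3 to 9.82 CPM for 4 leucocyte genes, 20.3 to 29.3 CPM for 2 neural genes, 0.466 to 1.89 CPM for 1 endothelial gene and 0.14 to 0.646 CPM for 3 muscle genes. Of the members tested, 72 of 86 were lower in replicate 2 than in replicate 1 of Flp-In siMePCE, at a median log2 difference of -0.184, and 68 of 86 were lower in replicate 2 of AsiSI siMePCE, at a median of -0.118. The same was true of 33 members in Flp-In siNC and 30 in AsiSI siNC. Among all protein-coding genes tested, 66.8% were lower in replicate 2 of Flp-In siMePCE and 62.6% in replicate 2 of AsiSI siMePCE. Their medians were -0.081 and -0.066. In Flp-In siNC and AsiSI siNC 50.5% and 51.6% of protein-coding genes were lower in replicate 2, beside 38.4% and 34.9% of the members. Counts, medians and the genes named by the rule given at the end were also fitted without replicate 2 of Flp-In siMePCE. Calls of other members were not followed one by one in that way.

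After siMePCE the respiratory chain genes did not move as a block. In AsiSI, 6 of the 86 members were called higher and 29 lower, with a median log2 fold change of -0.16 (edgeR, adjusted p under 0.05 over all genes tested). The background in AsiSI was 16.9% of protein-coding genes called higher and 35.0% called lower, with a median of -0.14, and 16.8% higher and 21.3% lower among all 43321 genes. In either direction these were 51.8% and 38.1%. The members' shares were 6.98% and 33.7%. The count of higher calls in AsiSI was 3 without replicate 1 of AsiSI siNC or of AsiSI siMePCE. In Flp-In, 17 members were called higher and 27 lower, with a median of -0.13. There 20.4% of protein-coding genes were called higher and 34.2% lower, with a median of -0.104, against 18.1% and 22.7% of all genes (54.6% and 40.8% in either direction), so that the members, at 19.8% and 31.4%, lay near the background. Without replicate 2 of Flp-In siMePCE the Flp-In counts became 14 and 15 and the median 0.024, and without replicate 1 of Flp-In siMePCE or of Flp-In siNC the higher calls numbered 10. Averaged over both lines, 18 members were called higher and 37 lower (20.9% and 43.0%), beside 24.5% and 40.7% of protein-coding genes and 25.2% and 27.2% of all genes. In either direction 65.2% of protein-coding genes and 52.5% of all genes were called in the average.

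The split between higher and lower calls depended on the scaling. With scaling factors taken from protein-coding genes alone, the median of all genes moved up by 0.157 in AsiSI, 0.105 in Flp-In and 0.131 in the average. The members then split into 16 higher and 23 lower in AsiSI, 24 and 21 in Flp-In, and 29 and 27 in the average. The median of all genes was then 0.194 in AsiSI, 0.137 in Flp-In and 0.176 in the average. Shares of other genes called under that scaling are not given here, so these counts cannot be set against a background.

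**Figure D1:**
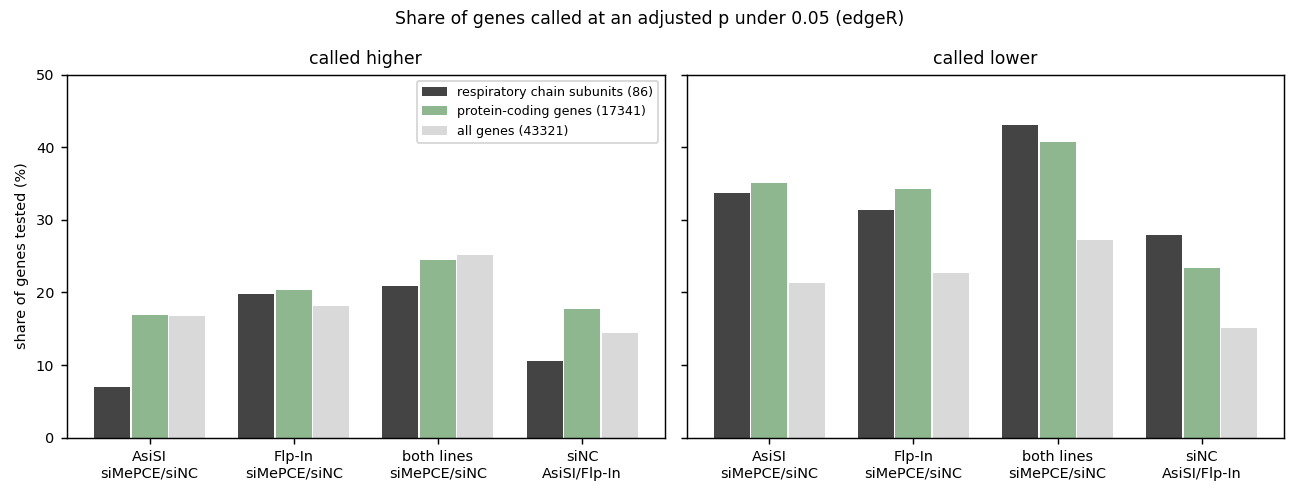
Bars give the percentage of genes called higher (left) and lower (right) for the 86 respiratory chain subunits, the 17341 protein-coding genes and all 43321 genes tested, in 4 comparisons named under the bars. The members' lower share (33.7% in AsiSI, 31.4% in Flp-In) lies close to that of protein-coding genes, and their higher share in AsiSI (6.98%) lies under it.

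Members called in both lines were 5 higher (NDUFS4, NDUFS5, UQCRH, NDUFA4 and COX7A2L) and 22 lower, and no member was called in opposite directions. Of the lower calls, the 22 made up 75.9% of those in AsiSI and 81.5% of those in Flp-In. Among protein-coding genes these shares were 76.6% and 78.3%. Of the higher calls, the 5 made up 83.3% of those in AsiSI and 29.4% of those in Flp-In, beside 69.8% and 57.6% among protein-coding genes, where 103 genes were called in opposite directions. Catalytic subunits of complex I, the core proteins of complex III and the head of complex V were mostly lower, while small accessory subunits went both ways. This grouping by role follows textbook structure and was drawn up after the values had been seen, so the counts by role are a description.

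**Figure D2:**
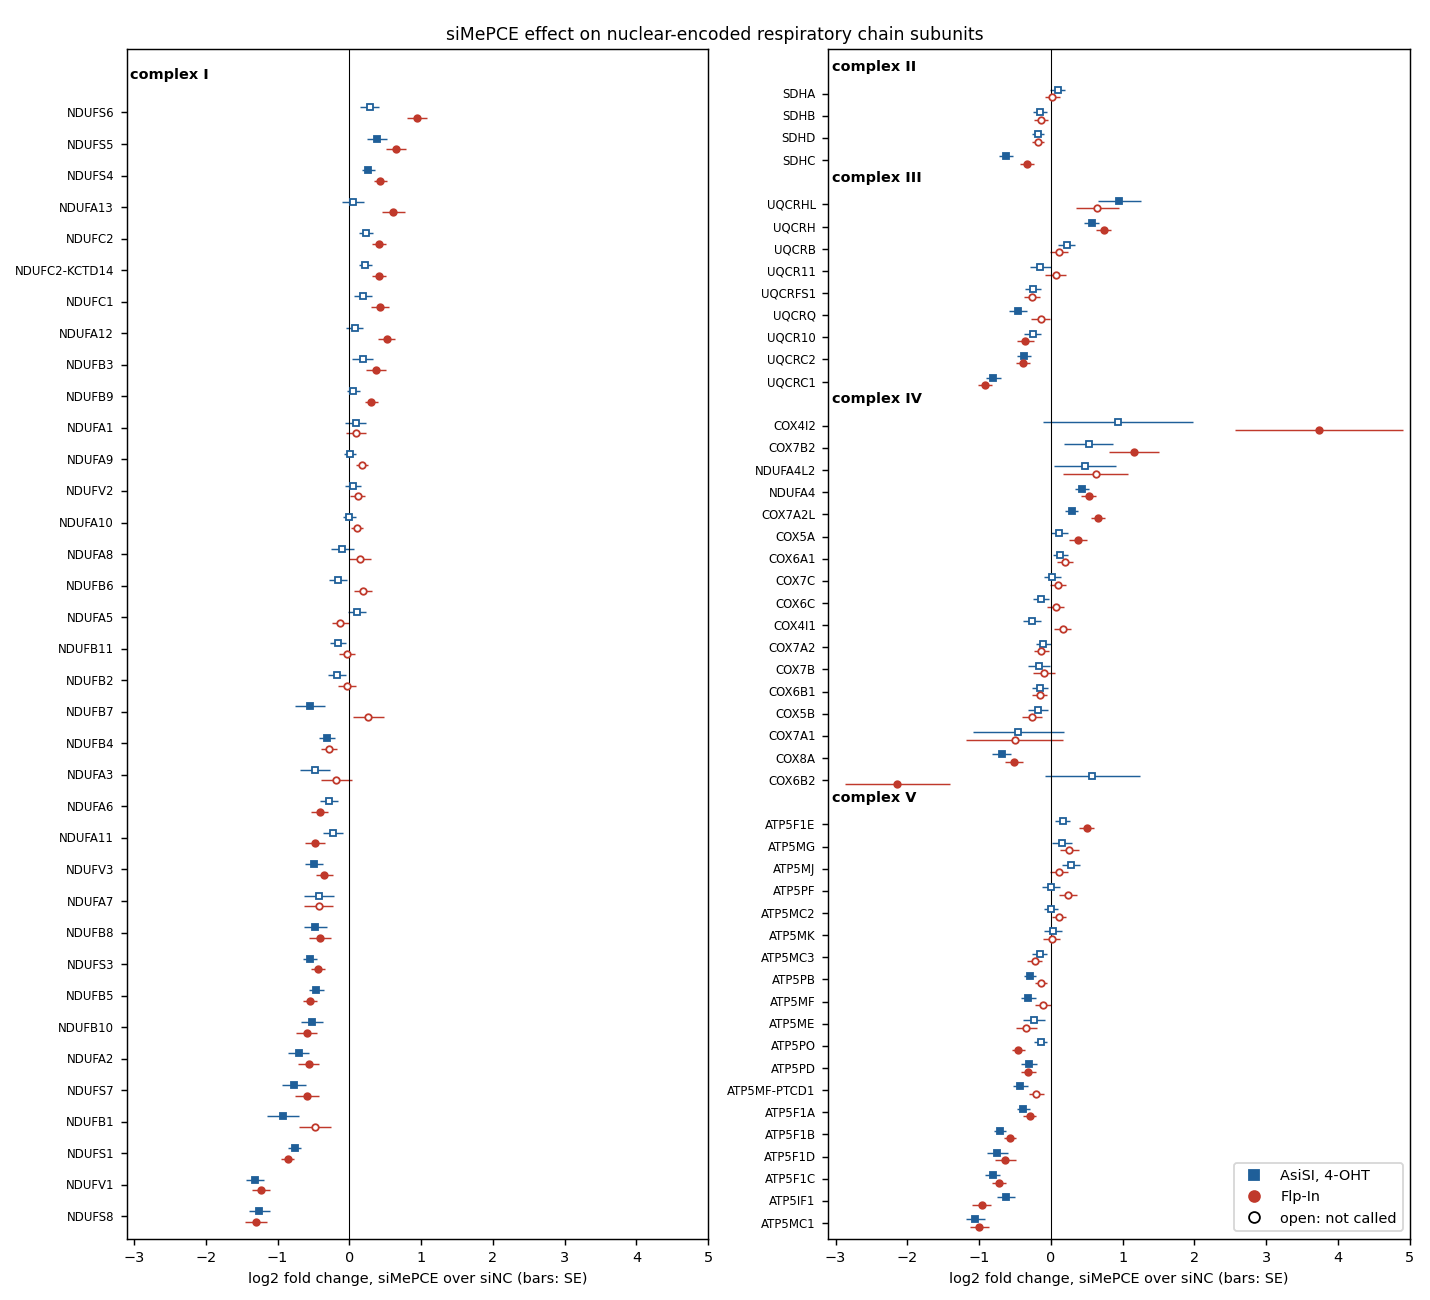
Rows are members that could be tested, with 1 not shown, by complex and ordered by its average change. Squares (AsiSI with 4-OHT) and circles (Flp-In) give the log2 fold change of siMePCE over siNC with its SE, filled where called. NDUFS8 and NDUFV1 lie near -1.3 in both lines, and UQCRH, NDUFA4, COX7A2L, NDUFS4 and NDUFS5 are filled to the right of 0 in both.

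Complex I oxidises NADH and passes its electrons through a flavin and a chain of iron-sulfur clusters to ubiquinone. All 7 nuclear core subunits that carry out this transfer were tested, and NDUFV1, NDUFS8, NDUFS1, NDUFS7 and NDUFS3 fell in both lines. The median log2 fold change over the 7 was -0.759 in AsiSI and -0.59 in Flp-In, against -0.173 and -0.033 over all 37 complex I members. NDUFV1, which binds the flavin that accepts electrons from NADH, had 10.5 and 10.6 CPM in AsiSI siMePCE, against 25.02 and 27.4 CPM in AsiSI siNC, and 15.1 and 12.5 CPM in Flp-In siMePCE, against 32.6 and 32.4 CPM in Flp-In siNC. Every siMePCE library lay below every siNC library, and the fall was 2.48-fold in AsiSI (log2 FC -1.31 ± 0.13 SE, adjusted p = 5.25e-08) and 2.36-fold in Flp-In (log2 FC -1.24 ± 0.12 SE, adjusted p = 8.95e-08). NDUFS8, an iron-sulfur subunit near the ubiquinone site, had 7.61 and 7.66 CPM in AsiSI siMePCE, against 16.8 and 19.7 CPM in AsiSI siNC, and 5.80 and 5.03 CPM in Flp-In siMePCE, against 13.99 and 12.7 CPM in Flp-In siNC. The siMePCE libraries were again lowest in each line, with a fall of 2.39-fold in AsiSI (log2 FC -1.26 ± 0.15 SE, adjusted p = 7.59e-07) and 2.47-fold in Flp-In (log2 FC -1.30 ± 0.15 SE, adjusted p = 6.54e-07). No overlapping row held 0.1 or more of the counts of either gene.

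NDUFS1, the largest iron-sulfur subunit, had 57.1 and 54.9 CPM in AsiSI siMePCE, against 97.6 and 92.1 CPM in AsiSI siNC, and 63.3 and 69.5 CPM in Flp-In siMePCE, against 127 and 115 CPM in Flp-In siNC. It fell 1.69-fold in AsiSI (log2 FC -0.76 ± 0.091 SE, adjusted p = 1.05e-06) and 1.82-fold in Flp-In (log2 FC -0.86 ± 0.091 SE, adjusted p = 1.77e-07), with no overlap between the groups of either line. NDUFS7, the subunit that holds the last cluster before ubiquinone, had 6.29 and 5.61 CPM in AsiSI siMePCE, against 9.29 and 11.03 CPM in AsiSI siNC, and 7.58 and 6.70 CPM in Flp-In siMePCE, against 11.7 and 9.84 CPM in Flp-In siNC. Its siMePCE libraries were below its siNC libraries in both lines, and it was called lower in AsiSI (log2 FC -0.77 ± 0.16 SE, adjusted p = 0.000751) and in Flp-In (log2 FC -0.59 ± 0.16 SE, adjusted p = 0.00608). NDUFS3, a subunit of the ubiquinone-facing module, fell by 0.55 on the log2 scale in AsiSI and by 0.43 in Flp-In. The calls of NDUFS7 and NDUFS3 were not followed one by one with single libraries left out. CELF1, which overlaps NDUFS3 on the opposite strand, held 4.31 times its counts, and how many reads the pair has in common is not known. NDUFV2, the other cluster-bearing subunit at the NADH end, did not follow them. It had 62.04 and 54.4 CPM in AsiSI siMePCE, against 61.7 and 50.8 CPM in AsiSI siNC, and 87.3 and 83.4 CPM in Flp-In siMePCE, against 83.8 and 73.7 CPM in Flp-In siNC, the groups overlapped in both lines, and it was not called (AsiSI log2 FC 0.05 ± 0.11 SE, adjusted p = 0.75, Flp-In log2 FC 0.12 ± 0.10 SE, adjusted p = 0.397); an overlapping row held 2.2 times its counts. With replicate 2 of Flp-In siMePCE left out, fewer of the 7 core subunits were called lower in Flp-In. With scaling from protein-coding genes 5 of the 7 were. These counts span all 7, not only the subunits named as falling, and no background share is given for either setting.

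The sequences before the start sites of the pair of core subunits that fell furthest are shown because these genes moved together in both lines. They are the 250 bases upstream of the RefSeq start on GRCh38.p14, 5′ to 3′ on the gene's strand, with capitals for a match to the YY1 letters ATGGCGGC. NDUFV1 lies at chr11:67606686-67606935 on the plus strand and NDUFS8 at chr11:68030431-68030680, also on the plus strand.
NDUFV1: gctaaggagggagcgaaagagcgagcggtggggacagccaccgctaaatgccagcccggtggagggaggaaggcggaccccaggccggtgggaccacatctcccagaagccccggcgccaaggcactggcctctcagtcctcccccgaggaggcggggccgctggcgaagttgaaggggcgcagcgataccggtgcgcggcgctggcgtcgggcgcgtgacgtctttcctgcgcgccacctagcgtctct
NDUFS8: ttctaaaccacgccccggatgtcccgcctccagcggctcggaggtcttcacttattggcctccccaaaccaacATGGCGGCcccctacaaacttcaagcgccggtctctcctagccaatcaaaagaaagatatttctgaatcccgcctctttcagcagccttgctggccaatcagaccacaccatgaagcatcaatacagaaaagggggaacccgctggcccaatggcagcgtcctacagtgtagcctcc
The NDUFS8 stretch holds the YY1 letters 177 bases before the start and has 55.6% G and C, whereas the NDUFV1 stretch holds none of the 4 motifs searched and has 70.4% G and C. In the hg19 coordinates of the counts, NDUFV1 spans chr11:67373124-67380025 and NDUFS8 chr11:67798084-67804111.

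Accessory subunits of complex I went in both directions. Of the 30 tested, 2 were called higher (6.67%) and 8 lower (26.7%) in AsiSI, with a median of -0.126. Protein-coding genes there had 16.9% higher and 35.0% lower. In Flp-In 10 were higher (33.3%) and 7 lower (23.3%), with a median of 0.099, beside 20.4% and 34.2%. The 10 count NDUFC2 and its readthrough row separately. NDUFS4, an accessory subunit at the joint of the peripheral arm that is needed for stable assembly, had 91.03 and 82.6 CPM in AsiSI siMePCE, against 77.4 and 67.2 CPM in AsiSI siNC, and 100.2 and 101 CPM in Flp-In siMePCE, against 77.9 and 71.03 CPM in Flp-In siNC. The siMePCE libraries were highest in each line, and NDUFS4 rose 1.2-fold in AsiSI (log2 FC 0.26 ± 0.095 SE, adjusted p = 0.0324) and 1.35-fold in Flp-In (log2 FC 0.43 ± 0.095 SE, adjusted p = 0.000936). The AsiSI call was lost when either siMePCE replicate 1 or siNC replicate 2 of AsiSI was left out, at an edgeR adjusted p of 0.256 and 0.244, and narrowly when any Flp-In library was left out, at 0.0532 to 0.0563, and with no count filter, at 0.0735. NDUFS5, a small subunit on the intermembrane-space side of the membrane arm, had 19.6 and 15.9 CPM in AsiSI siMePCE, against 13.6 and 13.6 CPM in AsiSI siNC, and 23.4 and 20.5 CPM in Flp-In siMePCE, against 12.6 and 15.5 CPM in Flp-In siNC. It was called higher in AsiSI (log2 FC 0.38 ± 0.14 SE, adjusted p = 0.0364) and in Flp-In (log2 FC 0.65 ± 0.14 SE, adjusted p = 0.000896). Its AsiSI call was lost without siMePCE replicate 1 (0.351), siNC replicate 1 (0.132) or siNC replicate 2 (0.0938) of AsiSI, and narrowly without either Flp-In siMePCE library (0.053 and 0.0508).

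NDUFS6, a zinc-binding accessory subunit added late in assembly, had 22.5 and 17.7 CPM in AsiSI siMePCE, against 16.8 and 16.3 CPM in AsiSI siNC, and 28.03 and 23.4 CPM in Flp-In siMePCE, against 12.8 and 14.00 CPM in Flp-In siNC. It rose 1.92-fold in Flp-In (log2 FC 0.94 ± 0.14 SE, adjusted p = 1.21e-05), where the groups lay far apart, and was not called in AsiSI (log2 FC 0.28 ± 0.14 SE, adjusted p = 0.111), where they were close but did not overlap. NDUFA12, which takes its place next to NDUFS6 in the finished arm, had 20.1 and 18.9 CPM in AsiSI siMePCE, against 18.8 and 18.3 CPM in AsiSI siNC, and 28.8 and 28.8 CPM in Flp-In siMePCE, against 19.96 and 20.2 CPM in Flp-In siNC. It rose 1.43-fold in Flp-In (log2 FC 0.52 ± 0.11 SE, adjusted p = 0.000891) and was not called in AsiSI (log2 FC 0.07 ± 0.11 SE, adjusted p = 0.656). In Flp-In the other accessory subunits called higher were NDUFA13, NDUFB3, NDUFB9, NDUFC1, NDUFC2 and the readthrough row NDUFC2-KCTD14, at log2 fold changes of 0.30 to 0.61. NDUFC2 and its readthrough row share their reads and stand for 1 signal. Rows overlapping NDUFA13, NDUFB3, NDUFB9 and NDUFC1 held 1.61, 2.4, 1.15 and 10.3 times their counts.

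Accessory subunits lower in both lines were NDUFA2, NDUFB5, NDUFB8, NDUFB10 and NDUFV3. NDUFA2, a small subunit of the NADH module, had 7.59 and 6.19 CPM in AsiSI siMePCE, against 11.8 and 10.7 CPM in AsiSI siNC, and 9.26 and 9.76 CPM in Flp-In siMePCE, against 14.03 and 14.1 CPM in Flp-In siNC, with log2 FC -0.71 ± 0.15 SE, adjusted p = 0.000756 in AsiSI and log2 FC -0.56 ± 0.15 SE, adjusted p = 0.00396 in Flp-In. The opposite-strand gene IK overlaps NDUFA2 and held 5.78 times its counts. Rows overlapping NDUFB8 and NDUFB5 held 7.95 and 2.02 times their counts. NDUFB10, a disulfide-bonded subunit of the membrane arm, had 9.55 and 8.62 CPM in AsiSI siMePCE, against 11.8 and 14.3 CPM in AsiSI siNC, and 18.2 and 13.9 CPM in Flp-In siMePCE, against 24.8 and 23.7 CPM in Flp-In siNC. It was called lower in AsiSI (log2 FC -0.52 ± 0.15 SE, adjusted p = 0.00833) and Flp-In (log2 FC -0.59 ± 0.14 SE, adjusted p = 0.0022). Leaving out replicate 2 of Flp-In siMePCE raised its adjusted p in Flp-In to 0.0688, and in AsiSI leaving out replicate 2 of siMePCE or of siNC raised it to 0.0622 and 0.103. NDUFB1, NDUFB4 and NDUFB7 were called lower in AsiSI alone, and NDUFA6 and NDUFA11 in Flp-In alone; whether the lines differed in these genes is covered by the test of the difference below, which called none of them.

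**Figure D3:**
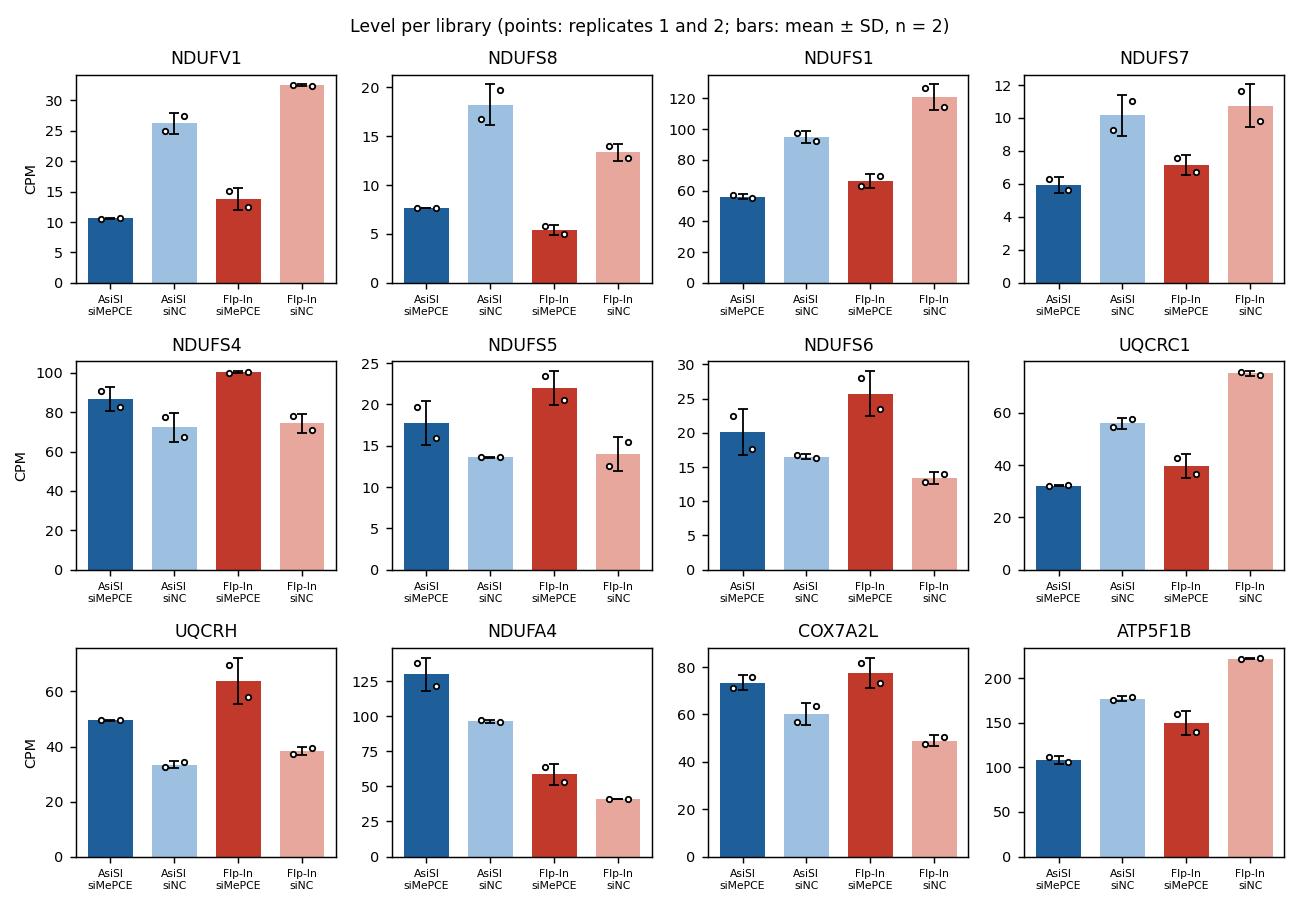
Each panel shows the level of a gene in CPM in the 4 groups, with points for the 2 libraries, a bar for their mean and a line for the SD. NDUFV1, NDUFS8, NDUFS1, NDUFS7, UQCRC1 and ATP5F1B are lower in siMePCE than in siNC in both lines, whereas NDUFS4, NDUFS5, UQCRH, NDUFA4 and COX7A2L are higher, and NDUFS6 differs most in Flp-In.

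Complex II, which oxidises succinate and belongs to the citrate cycle as well, had 1 of its 4 members called lower in each line and none higher. Its catalytic subunits SDHA, the flavoprotein, and SDHB, the iron-sulfur protein, were called in neither line (log2 fold changes 0.10 and -0.15 in AsiSI, 0.02 and -0.14 in Flp-In). SDHC, a haem-bearing membrane anchor, had 36.1 and 33.9 CPM in AsiSI siMePCE, against 52.01 and 55.5 CPM in AsiSI siNC, and 42.7 and 38.6 CPM in Flp-In siMePCE, against 50.5 and 51.6 CPM in Flp-In siNC. Every siMePCE library lay below every siNC library, and SDHC fell 1.54-fold in AsiSI (log2 FC -0.62 ± 0.099 SE, adjusted p = 3.66e-05) and 1.26-fold in Flp-In (log2 FC -0.33 ± 0.099 SE, adjusted p = 0.0107). The Flp-In call was lost without replicate 2 of Flp-In siMePCE (adjusted p = 0.126) or of Flp-In siNC (0.0678). SDHD, the other anchor, was called lower in the average alone (log2 FC -0.18 ± 0.057 SE, adjusted p = 0.0117), and that call was lost with scaling from protein-coding genes (adjusted p = 0.455).

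Complex III passes electrons from ubiquinol to cytochrome c. Its large core proteins UQCRC1 and UQCRC2, which face the matrix and resemble the processing peptidase of mitochondria, fell in both lines. UQCRC1 had 32.01 and 32.2 CPM in AsiSI siMePCE, against 54.5 and 57.5 CPM in AsiSI siNC, and 42.9 and 36.5 CPM in Flp-In siMePCE, against 75.7 and 74.5 CPM in Flp-In siNC. The groups of each line stood well apart, with a fall of 1.74-fold in AsiSI (log2 FC -0.80 ± 0.10 SE, adjusted p = 1.85e-06) and 1.89-fold in Flp-In (log2 FC -0.92 ± 0.1 SE, adjusted p = 2.62e-07). UQCRC2 had 39.1 and 35.1 CPM in AsiSI siMePCE, against 48.3 and 48.1 CPM in AsiSI siNC, and 54.6 and 50.5 CPM in Flp-In siMePCE, against 67.4 and 70.2 CPM in Flp-In siNC. Its fall was smaller, 1.3-fold in AsiSI (log2 FC -0.38 ± 0.097 SE, adjusted p = 0.00384) and 1.31-fold in Flp-In (log2 FC -0.39 ± 0.096 SE, adjusted p = 0.00266), and the AsiSI call was lost without replicate 2 of AsiSI siMePCE (adjusted p = 0.0529). UQCRFS1, the Rieske iron-sulfur protein, was called lower in the average only (log2 FC -0.26 ± 0.08 SE, adjusted p = 0.0102).

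UQCRH, the hinge protein that lies beside cytochrome c1, went the other way. It had 49.5 and 49.5 CPM in AsiSI siMePCE, against 32.5 and 34.4 CPM in AsiSI siNC, and 69.7 and 57.9 CPM in Flp-In siMePCE, against 37.2 and 39.5 CPM in Flp-In siNC. All siMePCE libraries were above all siNC libraries, and UQCRH rose 1.48-fold in AsiSI (log2 FC 0.57 ± 0.10 SE, adjusted p = 0.000184) and 1.66-fold in Flp-In (log2 FC 0.73 ± 0.10 SE, adjusted p = 8.76e-06). UQCRHL, a near copy of UQCRH without introns, had 2.43 and 2.03 CPM in AsiSI siMePCE, against 1.02 and 1.27 CPM in AsiSI siNC, and 2.11 and 1.82 CPM in Flp-In siMePCE, against 0.979 and 1.53 CPM in Flp-In siNC. It was called higher in AsiSI (log2 FC 0.95 ± 0.30 SE, adjusted p = 0.0144) and not in Flp-In (adjusted p = 0.0905), and reads of the pair may have been split between them, so UQCRHL is uncertain. SPEN-AS1, which overlaps UQCRHL on the same strand, held 12.6 times its counts. The UQCRHL call in AsiSI was lost without replicate 1 of AsiSI siNC (adjusted p = 0.118) or of AsiSI siMePCE (0.0856). Of the other small subunits, UQCRQ was called lower in AsiSI (log2 FC -0.46 ± 0.13 SE, adjusted p = 0.00759) and UQCR10 in Flp-In (log2 FC -0.36 ± 0.12 SE, adjusted p = 0.018), and UQCRB and UQCR11 were called in neither line. UQCR10 lost its Flp-In call whichever Flp-In library was left out (adjusted p = 0.068 to 0.0932) and with scaling from protein-coding genes (0.0763).

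The upstream sequences of UQCRC1 and UQCRH are shown because these subunits of the same complex moved in opposite directions. They were read as above, with capitals for a match to the NRF1 motif in UQCRC1 and the GABP letters CCGGAAG in UQCRH, both as they stand on the reverse strand. UQCRC1 lies at chr3:48609647-48609896 on the minus strand and UQCRH at chr1:46303448-46303697 on the plus strand.
UQCRC1: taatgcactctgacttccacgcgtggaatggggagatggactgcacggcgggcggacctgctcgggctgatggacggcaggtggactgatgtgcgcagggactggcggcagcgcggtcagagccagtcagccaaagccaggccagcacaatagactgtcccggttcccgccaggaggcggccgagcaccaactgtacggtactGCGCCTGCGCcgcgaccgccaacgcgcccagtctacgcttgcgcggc
UQCRH: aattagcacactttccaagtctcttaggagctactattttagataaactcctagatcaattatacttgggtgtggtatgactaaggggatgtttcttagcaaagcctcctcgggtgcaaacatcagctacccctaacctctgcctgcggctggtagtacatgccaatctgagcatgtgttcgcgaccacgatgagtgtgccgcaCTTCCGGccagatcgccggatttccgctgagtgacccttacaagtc
The NRF1 match begins 47 bases before the UQCRC1 start and the GABP letters begin 46 bases before the UQCRH start. The stretches have 67.2% and 49.2% G and C. In the counts' hg19 coordinates UQCRC1 spans chr3:48636435-48648409 and UQCRH chr1:46769370-46782448.

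Complex IV, cytochrome c oxidase, has its catalytic subunits encoded in mitochondrial DNA, so all of its nuclear members are accessory. Of 17 tested, 2 were called higher (11.8%) and 1 lower (5.88%) in AsiSI, with a median of 0.018. Protein-coding genes there had 16.9% higher and 35.0% lower. In Flp-In 5 were higher (29.4%) and 2 lower (11.8%), with a median of 0.099, beside 20.4% and 34.2%. NDUFA4, first assigned to complex I and now placed in complex IV, had 138 and 122 CPM in AsiSI siMePCE, against 97.1 and 95.7 CPM in AsiSI siNC, and 63.99 and 53.3 CPM in Flp-In siMePCE, against 40.7 and 40.8 CPM in Flp-In siNC. In each line the siMePCE libraries were above the siNC libraries, and NDUFA4 rose 1.35-fold in AsiSI (log2 FC 0.43 ± 0.097 SE, adjusted p = 0.00132) and 1.44-fold in Flp-In (log2 FC 0.53 ± 0.1 SE, adjusted p = 0.00023). COX7A2L, which joins complexes III and IV in supercomplexes, had 71.3 and 75.7 CPM in AsiSI siMePCE, against 56.9 and 63.5 CPM in AsiSI siNC, and 81.9 and 73.1 CPM in Flp-In siMePCE, against 47.4 and 50.6 CPM in Flp-In siNC. The siMePCE libraries were highest in each line, and it rose 1.22-fold in AsiSI (log2 FC 0.29 ± 0.096 SE, adjusted p = 0.0225) and 1.58-fold in Flp-In (log2 FC 0.66 ± 0.097 SE, adjusted p = 1.29e-05). The AsiSI call of COX7A2L was lost without replicate 1 of AsiSI siNC (adjusted p = 0.224), without replicate 2 of AsiSI siMePCE (0.145) and with no count filter (0.0506). COX5A, which stands with COX4 on the matrix side, was called higher in Flp-In (log2 FC 0.38 ± 0.12 SE, adjusted p = 0.0159) and not in AsiSI (adjusted p = 0.471).

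COX8A, the smallest common subunit, was the complex IV member that fell in both lines. It had 24.1 and 23.9 CPM in AsiSI siMePCE, against 36.3 and 40.9 CPM in AsiSI siNC, and 51.9 and 38.9 CPM in Flp-In siMePCE, against 58.6 and 70.9 CPM in Flp-In siNC, with log2 FC -0.69 ± 0.13 SE, adjusted p = 0.00021 in AsiSI and log2 FC -0.51 ± 0.12 SE, adjusted p = 0.00241 in Flp-In. The Flp-In call was lost without replicate 2 of Flp-In siMePCE (adjusted p = 0.0865) or of Flp-In siNC (0.0546), and a row overlapping COX8A held 1.09 times its counts. COX4I1, COX6A1, COX6B1, COX7A2 and COX7B, the widely expressed forms, were called in neither line, at log2 fold changes of -0.26 to 0.13 in AsiSI and -0.15 to 0.19 in Flp-In.

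Isoforms known from muscle, testis or low oxygen ranged from no counts to 112 counts in a library. COX6A2, the muscle form, had 0 counts in all 8 libraries, which allows up to 0.057 to 0.0718 CPM per library by counting error, and COX8C had at most 3 counts in a library. ATP5MGL, the third member not tested, had 0 to 10 counts. COX7A1, a muscle form, had 9 to 29 counts a library and NDUFA4L2, a form induced by low oxygen, 13 to 47, and neither was called in either line. COX4I2, the form of COX4 known from lung and low oxygen, had 10 and 2 counts in AsiSI siMePCE, against 3 and 4 in AsiSI siNC, and 16 and 18 in Flp-In siMePCE, against 0 and 2 in Flp-In siNC. COX6B2, a testis form, had 6 and 4 counts in Flp-In siMePCE, against 24 and 15 in Flp-In siNC, with the AsiSI groups overlapping. COX7B2, also known from testis, had 1.44 and 2.32 CPM in Flp-In siMePCE, against 0.723 and 0.957 CPM in Flp-In siNC. COX4I2 passed the count filter through Flp-In siMePCE, the group in which it was high, so its call, counted among the higher members, is a description. In Flp-In, COX4I2 was called higher (adjusted p = 0.0144), COX7B2 higher (0.0114) and COX6B2 lower (0.0232). These calls rest on few reads: leaving out replicate 1 of Flp-In siNC ended that of COX4I2 (0.164), as did leaving out either library of Flp-In siMePCE (0.0657 and 0.0936), the same libraries ended that of COX6B2 (0.162, 0.0619 and 0.131), and that of COX7B2 was lost without replicate 1 of Flp-In siNC (0.116) or replicate 2 of the Flp-In knockdown (0.183).

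Complex V, ATP synthase, had more members called lower than higher. Of 19 tested, 10 were lower, none higher and 9 not called in AsiSI (52.6% lower, beside 35.0% of protein-coding genes), and 8 were lower, 1 higher and 10 not called in Flp-In (42.1%, beside 34.2%), with medians of -0.287 and -0.228. The 10 in AsiSI count ATP5MF and its readthrough row, which share reads, separately. In the average 13 were lower and 1 higher, at a median of -0.288, beside -0.118 over protein-coding genes. The catalytic head and central stalk fell together in both lines except for its smallest part: ATP5F1A (alpha), ATP5F1B (beta), ATP5F1C (gamma) and ATP5F1D (delta) were called lower in each line. ATP5F1B, which holds the catalytic sites, had 112 and 106 CPM in AsiSI siMePCE, against 175 and 179 CPM in AsiSI siNC, and 159 and 139.8 CPM in Flp-In siMePCE, against 221 and 222 CPM in Flp-In siNC. No siMePCE library reached any siNC library of its line, and ATP5F1B fell 1.63-fold in AsiSI (log2 FC -0.70 ± 0.084 SE, adjusted p = 1.02e-06) and 1.48-fold in Flp-In (log2 FC -0.57 ± 0.084 SE, adjusted p = 1.36e-05). ATP5F1C, the rotating shaft, had 48.3 and 41.5 CPM in AsiSI siMePCE, against 84.8 and 73.1 CPM in AsiSI siNC, and 48.2 and 46.02 CPM in Flp-In siMePCE, against 79.3 and 76.3 CPM in Flp-In siNC, a fall of 1.76-fold in AsiSI (log2 FC -0.81 ± 0.10 SE, adjusted p = 1.89e-06) and 1.65-fold in Flp-In (log2 FC -0.72 ± 0.10 SE, adjusted p = 7.63e-06). ATP5F1A and ATP5F1D fell by 0.39 and 0.75 on the log2 scale in AsiSI and by 0.29 and 0.63 in Flp-In. ATP5F1E (epsilon), the exception, had 86.5 and 85.5 CPM in AsiSI siMePCE, against 74.7 and 78.8 CPM in AsiSI siNC, and 107 and 83.9 CPM in Flp-In siMePCE, against 62.4 and 72.7 CPM in Flp-In siNC. It rose in Flp-In (log2 FC 0.50 ± 0.11 SE, adjusted p = 0.000791) and was not called in AsiSI (log2 FC 0.16 ± 0.11 SE, adjusted p = 0.241), and its Flp-In call was lost without replicate 1 of Flp-In siMePCE (adjusted p = 0.0538). The count of head and stalk subunits called lower in Flp-In fell without replicate 2 of Flp-In siMePCE or of Flp-In siNC. Scaling from protein-coding genes gave 3 in Flp-In and 4 in AsiSI. No background share is given for these settings.

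The ring of c subunits that turns with the proton flow is encoded by 3 nuclear genes whose mature proteins are identical, and these did not move alike. ATP5MC1 had 14.3 and 11.9 CPM in AsiSI siMePCE, against 26.4 and 27.99 CPM in AsiSI siNC, and 25.2 and 18.9 CPM in Flp-In siMePCE, against 42.7 and 45.5 CPM in Flp-In siNC. It fell 2.07-fold in AsiSI (log2 FC -1.05 ± 0.14 SE, adjusted p = 2.74e-06) and 2-fold in Flp-In (log2 FC -1.001 ± 0.13 SE, adjusted p = 3.43e-06), with groups far apart, though an opposite-strand row held 3.22 times its counts. ATP5MC2 had 64.6 and 60.5 CPM in AsiSI siMePCE, against 59.2 and 65.7 CPM in AsiSI siNC, and 83.96 and 75.2 CPM in Flp-In siMePCE, against 71.99 and 74.9 CPM in Flp-In siNC and was called in neither line (0.002 and 0.12 on the log2 scale). ATP5MC3 was called lower in the average only (log2 FC -0.19 ± 0.073 SE, adjusted p = 0.0321). ATP5IF1, the inhibitor that stops the enzyme from running backwards, had 21.3 and 16.3 CPM in AsiSI siMePCE, against 29.7 and 28.3 CPM in AsiSI siNC, and 16.7 and 14.4 CPM in Flp-In siMePCE, against 29.9 and 30.8 CPM in Flp-In siNC. It fell 1.54-fold in AsiSI (log2 FC -0.62 ± 0.13 SE, adjusted p = 0.000628) and 1.95-fold in Flp-In (log2 FC -0.96 ± 0.13 SE, adjusted p = 5.16e-06). In the peripheral stalk, which holds the head still, ATP5PD was lower in both lines, ATP5PB in AsiSI and ATP5PO in Flp-In, with ATP5PF called in neither. Of the 6 rows for small membrane subunits, 1 of them a readthrough, none was called in Flp-In, and ATP5MF and its readthrough row ATP5MF-PTCD1, which share reads, were called lower in AsiSI. The ATP5MF call was lost with scaling from protein-coding genes (adjusted p = 0.216), without replicate 2 of AsiSI siMePCE (0.151) and without either AsiSI siNC library (0.056 and 0.103).

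Levels were also summed over the members of each complex. The sum over complex V was 776 and 719 CPM in AsiSI siMePCE, against 925 and 933 CPM in AsiSI siNC, and 997 and 875 CPM in Flp-In siMePCE, against 1104 and 1142 CPM in Flp-In siNC, ratios of 0.805 and 0.834. The sum over the 7 core subunits of complex I was 201 and 183 CPM in AsiSI siMePCE, against 285 and 284 CPM in AsiSI siNC, and 244 and 240.2 CPM in Flp-In siMePCE, against 353 and 330 CPM in Flp-In siNC, ratios of 0.675 and 0.709. Accessory subunits of complex I, by contrast, had ratios of 0.98 in AsiSI and 1.08 in Flp-In. Ratios over complexes II, III and IV were 0.882, 0.874 and 1.04 in AsiSI and 0.898, 0.878 and 1.09 in Flp-In. For complex IV the libraries of siMePCE and siNC overlapped in both lines. These sums exclude the readthrough rows and carry no test.

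Subunits encoded in mitochondrial DNA went the opposite way in most cases. Of 13, 12 were called higher (92.3%) and 1 lower in AsiSI, at a median of 0.835, beside 16.9% of protein-coding genes called higher. In Flp-In 9 were higher (69.2%) and 1 lower, at a median of 0.786, beside 20.4%. The sum over the 13 was 96057 and 103420 CPM in AsiSI siMePCE, against 60000 and 59658 CPM in AsiSI siNC, and 87275 and 77543 CPM in Flp-In siMePCE, against 51505 and 53977 CPM in Flp-In siNC. MT-ND6, the complex I subunit on the light strand, had the largest rise, 5.15-fold in AsiSI (log2 FC 2.36 ± 0.088 SE, adjusted p = 1.47e-13) and 5.01-fold in Flp-In (log2 FC 2.32 ± 0.088 SE, adjusted p = 1.57e-13). MT-ND4 rose 2.43-fold in AsiSI and 2.49-fold in Flp-In. MT-CO3, a core subunit of complex IV, was the 1 that fell. Complex I thus held nuclear core subunits that fell beside mitochondrial core subunits that rose, in the same libraries.

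**Figure D4:**
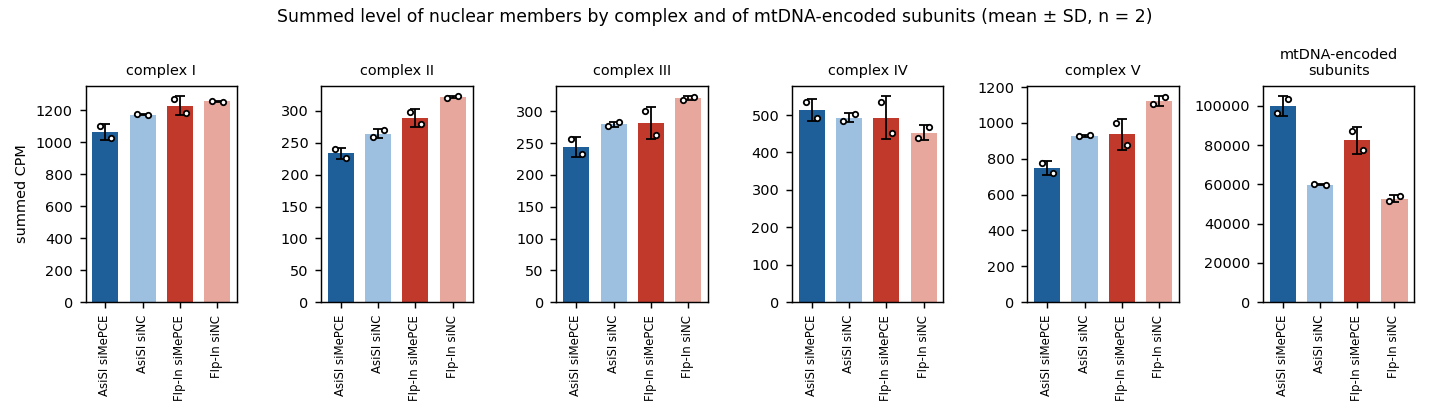
Summed CPM of the nuclear members of complexes I to V and of the 13 subunits encoded in mitochondrial DNA, with points for the 2 libraries of each group, bars for the mean and lines for the SD. Complex V is lower in siMePCE than in siNC in both lines (ratios 0.805 and 0.834). The complex IV means have ratios of 1.04 and 1.09, but the libraries of siMePCE and siNC overlap in both lines. The mitochondrial sum is 1.67 times as high in AsiSI and 1.56 times as high in Flp-In.

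Whether the siMePCE effect differed between the lines was tested directly as AsiSI minus Flp-In. edgeR called no member, beside 3.1% of protein-coding genes called higher and 3.11% lower (2.51% and 1.66% of all genes, and 6.21% and 4.17% in either direction). At an unadjusted p under 0.05 in edgeR there were 10 of 86 members, 2 with a positive and 8 with a negative difference. Beside them stood 4171 of 17341 protein-coding genes and 7686 of all 43321 genes. Of the 86 differences 58 were negative, with a median of -0.109 beside -0.057 over protein-coding genes. The share of negative differences among other genes is not given here. The lowest adjusted p was that of NDUFS6 (difference -0.66, adjusted p = 0.0578), whose rise in Flp-In was the larger; DESeq2 called NDUFS6 and no other member (difference -0.65 ± 0.21 SE, adjusted p = 0.0205).

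Without MEPCE knockdown, AsiSI siNC and Flp-In siNC differed in 33 of the 86 members, 9 higher and 24 lower in AsiSI (10.5% and 27.9%). Among protein-coding genes 17.7% were higher and 23.3% lower, and among all genes 14.4% and 15.1%. In either direction 41.1% of protein-coding genes and 29.5% of all genes differed. NDUFA4 differed most among the members with a mean of at least 5 CPM, at 97.1 and 95.7 CPM in AsiSI siNC, against 40.7 and 40.8 CPM in Flp-In siNC, and was 2.36-fold higher in AsiSI (log2 FC 1.24 ± 0.1 SE, adjusted p = 5.44e-09). COX7C, a small accessory subunit of complex IV, had 35.4 and 33.2 CPM in AsiSI siNC, against 22.6 and 26.3 CPM in Flp-In siNC (log2 FC 0.49 ± 0.12 SE, adjusted p = 0.00293). NDUFC2 (0.44) and NDUFS8 (0.45) were also higher on the log2 scale. The call of NDUFS8 was lost without either Flp-In siNC library (adjusted p = 0.0558 and 0.151) or AsiSI siNC replicate 2 (0.167), and that of COX7C without Flp-In siNC replicate 1 (0.0603). Among the lower members were NDUFB10, with 11.8 and 14.3 CPM in AsiSI siNC, against 24.8 and 23.7 CPM in Flp-In siNC (log2 FC -0.89 ± 0.14 SE, adjusted p = 6.44e-05), ATP5MF with 25.6 and 26.6 CPM in AsiSI siNC, against 46.4 and 43.4 CPM in Flp-In siNC (log2 FC -0.78 ± 0.11 SE, adjusted p = 1.03e-05) and COX8A with 36.3 and 40.9 CPM in AsiSI siNC, against 58.6 and 70.9 CPM in Flp-In siNC (log2 FC -0.75 ± 0.13 SE, adjusted p = 9.66e-05). Without replicate 1 of Flp-In siNC the higher members numbered 4, and without replicate 2 of Flp-In siNC the lower members numbered 14. Complex V contributed 10 of the 24 lower members and none of the higher ones, beside 23.3% of protein-coding genes lower, and the 10 count ATP5MF and its readthrough row separately. Its small membrane subunits ATP5MF, ATP5MG, ATP5MJ and ATP5MK were lower and ATP5ME was not called. This comparison shares its siNC libraries with the knockdown comparisons.

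Other genes of the pathway were counted from lists of known members. Their shares stand beside 16.9% of protein-coding genes higher and 35.0% lower in AsiSI, and 20.4% and 34.2% in Flp-In. Among all genes these were 16.8% and 21.3% in AsiSI, and 18.1% and 22.7% in Flp-In. Cytochrome c1 (CYC1), the complex III subunit that hands electrons to cytochrome c and is missed by the naming rule, had 31.1 and 33.8 CPM in AsiSI siMePCE, against 67.97 and 77.6 CPM in AsiSI siNC, and 38.7 and 33.8 CPM in Flp-In siMePCE, against 108 and 107 CPM in Flp-In siNC. It fell 2.24-fold in AsiSI (log2 FC -1.17 ± 0.10 SE, adjusted p = 1.32e-08) and 2.96-fold in Flp-In (log2 FC -1.57 ± 0.10 SE, adjusted p = 2.06e-10). In the list of 8 mobile carriers and cytochrome c1, 1 was higher and 3 lower in AsiSI, and 0 higher and 4 lower in Flp-In. Citrate cycle enzymes, which supply the chain with NADH and succinate, were mostly lower. Of 18, 1 was higher (5.56%) and 13 lower (72.2%) in AsiSI, at a median of -0.607. In Flp-In 1 was higher (5.56%) and 12 lower (66.7%), at -0.43. OGDH, a subunit of the 2-oxoglutarate dehydrogenase complex, had 53.5 and 50.8 CPM in AsiSI siMePCE, against 121 and 126 CPM in AsiSI siNC, and 57.3 and 56.1 CPM in Flp-In siMePCE, against 116 and 123 CPM in Flp-In siNC, a fall of 2.38-fold in AsiSI and 2.1-fold in Flp-In. PDHX, of the pyruvate dehydrogenase complex, was the 1 enzyme called higher, with log2 fold changes of 0.38 in AsiSI and 0.54 in Flp-In.

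Among 18 complex I assembly factors, 1 was higher and 9 lower in AsiSI, and 3 higher and 6 lower in Flp-In. NDUFAF3, needed early in the assembly of the ubiquinone module, fell by 1.44 and 1.38 on the log2 scale in AsiSI and Flp-In, whereas NDUFAF2, a late factor that NDUFA12 replaces, rose by 0.41 and 0.64. Assembly factors of complexes II to V numbered 36, with 1 higher and 18 lower in AsiSI and 4 higher and 12 lower in Flp-In. LYRM7, which guides the Rieske protein, and ATPAF1, which assembles the head of complex V, fell by 1.41 and 1.19 in AsiSI and by 1.07 and 1.10 in Flp-In. Of 78 mitochondrial ribosomal proteins, 3 were higher (3.85%) and 37 lower (47.4%) in AsiSI, at a median of -0.286. In Flp-In 15 were higher (19.2%) and 25 lower (32.1%), near the background, at a median of -0.085. Scaling from protein-coding genes moves Flp-In values up by 0.105, more than the size of that median. Regulators of mitochondrial gene expression numbered 16, with 3 higher and 7 lower in AsiSI and 3 higher and 4 lower in Flp-In. TFAM, which packages mitochondrial DNA and starts its transcription, had 88.6 and 84.5 CPM in AsiSI siMePCE, against 56.7 and 49.5 CPM in AsiSI siNC, and 112 and 99.4 CPM in Flp-In siMePCE, against 53.6 and 48.5 CPM in Flp-In siNC, and rose 1.63-fold in AsiSI (log2 FC 0.70 ± 0.098 SE, adjusted p = 7.24e-06) and 2.07-fold in Flp-In (log2 FC 1.05 ± 0.099 SE, adjusted p = 3.85e-08).

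Promoter sequences were described as a feature that the naming rule did not use. RefSeq start sites were matched for 70 of the 89, and the 250 bases upstream were searched on both strands. Any of the 4 motifs searched occurred in 33 of the 70 (47.1%), beside 24.9% of protein-coding genes tested and 16.6% of all genes with a start site, with no test. The NRF1 motif occurred in 21.4% of these members, 9.82% of protein-coding genes tested and 6.2% of all genes with a start site. The GABP letters CCGGAAG occurred in 25.7%, 15.5% and 10.2%, the YY1 letters ATGGCGGC in 4.29%, 2.08% and 1.59%, and the ERR letters TCAAGGTCA in 0%, 0.289% and 0.388%. Each motif was searched on its own, so matches to different motifs may overlap. By call in the average, the NRF1 motif stood in 1 of 12 higher, 8 of 29 lower and 5 of 27 not called members with a promoter. The GABP letters stood in 2 of 12, 7 of 29 and 9 of 27, the largest share being in members not called (33.3%). A match is a run of letters, not a bound site.

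Fold change was also set against base composition and length. Across the 86 members, Spearman's rho between the averaged log2 fold change and the G and C content of the longest coding transcript was -0.29, beside -0.35 across 17094 protein-coding genes with a transcript. With the length of the counted interval, introns included, rho was 0.27, beside 0.23, and with transcript length it was -0.08, beside 0.04. These are descriptions across genes, which share libraries and scaling and are not independent replicates. The median G and C content was 46.3% in the 18 members called higher, 49.9% in the 37 lower and 50.6% in the 31 not called.

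**Figure D5:**
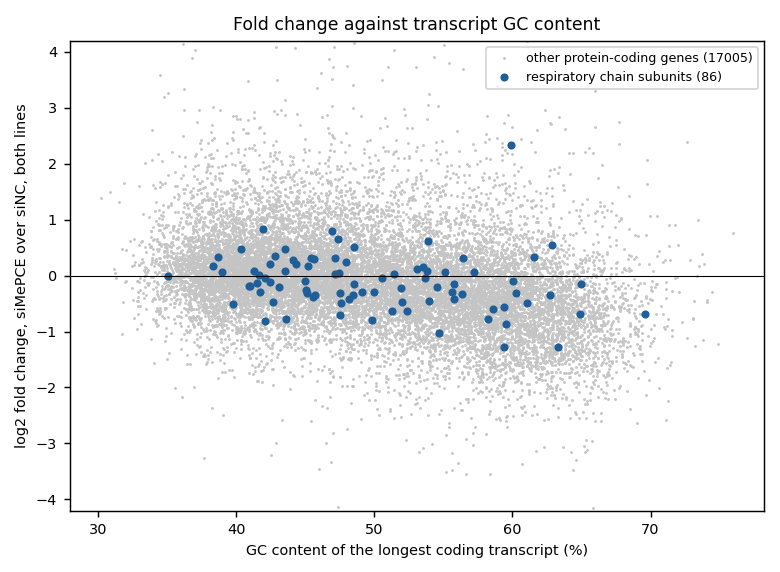
Each point is a gene, with the G and C content of its longest coding transcript in percent on the horizontal axis and its log2 fold change, siMePCE over siNC averaged over both lines, on the vertical axis. The 86 members (blue) lie within the cloud of 17005 other protein-coding genes (grey), 10 genes fall outside the plotted range of 4.2 in either direction, and both clouds slope downwards.

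Overlapping genes limit single members. Among the 89, 39 had no overlapping row holding at least 0.1 of their counts (43.8%, beside 41.6% of protein-coding genes), and 34 had an overlapping row with at least as many counts as their own. Restricted to the 38 tested members without such a row, 5 were higher and 14 lower in AsiSI (13.2% and 36.8%) and 10 higher and 12 lower in Flp-In (26.3% and 31.6%). Among the 7206 protein-coding genes without such a row, 1299 were higher and 2379 lower (33.0%) in AsiSI, and 1624 higher (22.5%) and 2294 lower (31.8%) in Flp-In. NDUFV1, NDUFS8, NDUFS4, NDUFS5, SDHC, UQCRC1, UQCRC2, UQCRH, NDUFA4, COX7A2L, ATP5F1A, ATP5F1B and ATP5F1D are among these 38.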

How the data were processed

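Total RNA of 8 samples of U2OS-derived cells was made into directional, ribosomal RNA-depleted libraries, per the labels' protocols. The deposited table holds whole-number counts per gene for 80311 genes. Per the submitters' processing notes, featureCounts and STAR were used with hg19, beside SAMtools, FastQC and Trim Galore, and the counting settings are not given in the sources used here. In all 80311 rows the deposited length equals the gene's span, introns included, and overlapping genes may share reads on either strand. Library totals were 41431776 to 53695626 counts.

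Gene types came from GENCODE 29. Counts were filtered (43321 genes kept), scaled by TMM and fitted with edgeR 4.0.16 (R 4.3.3, limma 3.58.1) by the quasi-likelihood test over all 8 libraries as 4 group means. P-values were adjusted by Benjamini-Hochberg over all 43321 genes, with 0.05 as the threshold. The common biological coefficient of variation was 0.121. With 2 libraries against 2, an exact permutation test of a single value cannot go below 0.333. Counts of 41570 genes were simulated with 200 of them changed. Recovered were 23.9% of 1.5-fold, 47.8% of 2-fold and 83.3% of 4-fold changes in AsiSI, and 19.4%, 46.3% and 81.8% in Flp-In. Far fewer genes changed there than were called in the data, which makes the adjusted p stricter. These shares therefore do not carry over to the members. Intervals and floors cover counting error only.

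The members and gene lists were chosen with earlier results of these data known. Named were up to 3 higher and 3 lower members per complex by adjusted p in the averaged comparison, up to 4 in each direction between the siNC groups with a mean of at least 5 CPM, the tissue isoforms with their common forms, and up to 2 genes per other list and direction. Other members are named for their role, with their values known. The alternatives tried were other scalings, count filters, DESeq2 1.42.0, a fold threshold of 1.2 and a replicate block. Others were the members with no overlapping row holding at least 0.1 of their counts, and each library left out. Values of 1 member are not reported here.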

Additional observations from a re-analysis of the deposited data

Results flagged for a closer look

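The background of edgeR's test of the difference between the siMePCE effects in AsiSI and Flp-In was 6.21% of protein-coding genes and 4.17% of all genes. In the lists of other pathway genes, that test called 1 of 13 subunits encoded in mitochondrial DNA (7.69%), 5 of 16 regulators (31.2%), 5 of 78 mitochondrial ribosomal proteins (6.41%) and 1 of 36 assembly factors of complexes II to V (2.78%). Of the genes named by rule, 3 were among them. MT-CO3, a complex IV subunit encoded in mitochondrial DNA, had 4553 and 5161 CPM in AsiSI siMePCE, against 5703 and 6096 CPM in AsiSI siNC, and 2549 and 2279 CPM in Flp-In siMePCE, against 4161 and 4386 CPM in Flp-In siNC. Its log2 fold change was -0.28 in AsiSI and -0.82 in Flp-In, a difference of 0.544 (adjusted p = 0.0024). ESRRB, an orphan nuclear receptor, had 5.79 and 5.70 CPM in AsiSI siMePCE, against 13.8 and 14.8 CPM in AsiSI siNC, and 2.92 and 3.31 CPM in Flp-In siMePCE, against 15.8 and 15.4 CPM in Flp-In siNC, a difference of 1.009 (adjusted p = 0.00896). TFB2M, a mitochondrial transcription factor, had 31.2 and 29.6 CPM in AsiSI siMePCE, against 27.5 and 26.1 CPM in AsiSI siNC, and 39.2 and 37.1 CPM in Flp-In siMePCE, against 21.2 and 18.1 CPM in Flp-In siNC, a difference of -0.776 (adjusted p = 0.00678).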

How the results depend on the processing

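None of the 84 called results of named members changed direction in an alternative. The members' median in Flp-In did, from -0.13 to 0.024, without replicate 2 of Flp-In siMePCE. With scaling from protein-coding genes the members' median log2 fold change was -0.004 in AsiSI, -0.025 in Flp-In and -0.014 in the average. Higher calls then numbered 16 in AsiSI and 29 in the average, and the Flp-In calls were 24 higher and 21 lower. No background share is given for that scaling, the fold threshold, the count filters, DESeq2, the replicate block or the fits with a library left out. Member counts under these settings therefore cannot be set against other genes. Against a fold of 1.2 (glmTreat), 3 were higher and 19 lower in AsiSI, 11 and 17 in Flp-In, 8 and 21 in the average, and 5 and 14 between the siNC groups. Among members with no overlapping row holding at least 0.1 of their counts, 14 were lower in AsiSI, and 10 higher and 12 lower in Flp-In. In the average 10 of them were higher and 16 lower, and 9 were lower between the siNC groups, by construction over fewer genes. A filter of 1 CPM in 2 libraries gave 11 higher calls in AsiSI. In the test of the difference between lines, 1 member was lower with no count filter, with the CPM filter, with DESeq2 and with the replicate block. The cause was not tested.

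Leaving out each library gave 3 to 7 higher and 20 to 31 lower calls in AsiSI, 10 to 17 and 15 to 31 in Flp-In, 13 to 18 and 32 to 40 in the average, 4 to 10 and 14 to 24 between the siNC groups, and 0 higher and 0 to 1 lower in the difference. Medians ran from -0.242 to -0.112 in AsiSI, -0.209 to 0.024 in Flp-In, -0.203 to -0.096 in the average, -0.14 to -0.082 between the siNC groups and -0.186 to -0.021 in the difference. Libraries of the same number correlated at 0.043 to 0.155 in their deviations from group means, so the numbers were not taken as pairs. With the replicate block, 8 members were higher and 33 lower in AsiSI, 17 and 31 in Flp-In, 20 and 38 in the average, and 10 and 27 between the siNC groups. Of 1399 alternative values of 84 named results, 1305 kept their side of the threshold and 94 lost it.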
